A study of Sus scrofa with 13 samples.

Results

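The genes described here encode enzymes of the citric acid cycle, measured by RNA-seq in the longissimus lumborum muscle of pigs from 2 sire breeds. The list named 9 genes, CS, IDH2, IDH3A, IDH3B, OGDH, SUCLA2, SUCLG1, FH and MDH2, and a gene was taken as a member where its symbol matched an identifier in the count tables of both breeds. By this rule 8 of the 25322 genes in the tables were members, and CS matched no identifier. All 8 members passed the expression filter in every comparison. The pigs were unrelated females aged 6 months, kept and fed alike, and picked from a larger population for extreme loin weight within their breed. The groups were Hampshire with high loin weight (3 pigs), Hampshire with low loin weight (3 pigs), Pietrain with high loin weight (4 pigs) and Pietrain with low loin weight (3 pigs). No pig received a treatment, so each comparison sets animals of different growth or breed against each other, and all pieces of muscle were taken right after slaughter.

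The citric acid cycle runs in the mitochondrial matrix and burns the acetyl group that pyruvate or fatty acids deliver, passing the electrons on to the respiratory chain. Its steps run from citrate through isocitrate, alpha-ketoglutarate, succinyl-CoA, succinate, fumarate and malate back to oxaloacetate. In skeletal muscle the cycle enzymes are more abundant in oxidative than in glycolytic fibres, and the longissimus is a muscle of mostly fast fibres.

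Total counts per pig ranged from 11312755 to 20134612, with a median of 14055410, and pigs of 1 group differed by far more than sampling noise. Levels are given as CPM, the reads of a gene relative to the library total, scaled with TMM factors over all 13 pigs. IDH3B had the fewest reads of the members, from 184 to 887 counts per pig, and MDH2 the most, from 4568 to 16416. All 8 matched muscle-defining genes were detected in every group. Pietrain low pig 5 stood apart in its slow fibre genes, whose 6 matched markers summed to 33.2 CPM, against 761 to 17879 CPM in the other 12 pigs. Fold changes over all genes went with genomic length, with a Spearman rho across genes of -0.386 in the Hampshire comparison and -0.391 between the breeds at high loin weight. For the members and the named genes with known positions, calls that changed with that trend taken out are therefore given below. Counts of the fibre, respiratory chain and cell type lists are not given that way.

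In Hampshire pigs, IDH2 was the member that rose with high loin weight. It encodes the mitochondrial isocitrate dehydrogenase that makes NADPH and stands beside the NAD-dependent enzyme of the cycle. IDH2 (ENSSSCG00000001852, chromosome 7, 60539333 to 60549480 on Sscrofa10.2) was at 653, 667 and 543 CPM in the high loin weight pigs 8, 9 and 10, and at 390, 425 and 319 CPM in the low loin weight pigs 1, 2 and 3. The lowest high pig lay above the highest low pig. Its expression was 1.64 times that of the low pigs, or 0.71 on the log2 scale (SE 0.180), at an adjusted p of 0.0218 (edgeR's quasi-likelihood test, Benjamini-Hochberg over all genes). Genes were called when their adjusted p was below 0.05 and they changed by 1.2 times or more, and 1 of the 8 members was called, against 26.6% of all 12228 genes tested. The call was lost without high pig 8, high pig 9 or low pig 3, where the log2 fold change was 0.59 to 0.64 and the adjusted p 0.0548 to 0.0945. It was also lost in 1 fit over all 13 pigs, at an adjusted p of 0.0753.

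The subunits of the NAD-dependent isocitrate dehydrogenase took opposite directions, without either member passing the test. IDH3A (ENSSSCG00000001761, chromosome 7, 53311339 to 53330721), the catalytic alpha subunit, was at 184, 156 and 131 CPM in the high pigs and at 255, 214 and 192 CPM in the low pigs. Every high pig was below every low pig, with a log2 fold change of -0.50 (SE 0.187, adjusted p 0.0777 by edgeR). IDH3B (ENSSSCG00000007173, chromosome 17, 37446326 to 37451309), a regulatory subunit of the same enzyme, was at 60.4, 53.1 and 46.8 CPM in the high pigs and at 45.4, 39.2 and 37.6 CPM in the low pigs. Its groups did not overlap either, in the other direction, with a log2 fold change of 0.39 (SE 0.161, adjusted p 0.105 by edgeR). IDH3A passed the test without high pig 8, at a log2 fold change of -0.65.

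The members of succinyl-CoA ligase, which turns succinyl-CoA into succinate and makes a nucleoside triphosphate, were also split. SUCLA2 (ENSSSCG00000009405, chromosome 11, 20069061 to 20123486), the beta subunit that uses ADP, was at 294, 273 and 220 CPM in the high pigs and at 496, 337 and 317 CPM in the low pigs. Its groups did not overlap, and the log2 fold change of -0.56 (SE 0.219) did not pass at an adjusted p of 0.0893 by edgeR. SUCLG1 (ENSSSCG00000008247, chromosome 3, 63138797 to 63174815), the alpha subunit shared by both forms of the enzyme, was at 587, 813 and 591 CPM in the high pigs and at 614, 462 and 405 CPM in the low pigs. High pig 9 stood above all others and the groups overlapped, with a log2 fold change of 0.42 (SE 0.223, adjusted p 0.189 by edgeR).

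The other members, OGDH, FH and MDH2, lay within 0.09 of 0 on the log2 scale in Hampshire. OGDH (ENSSSCG00000016743, chromosome 18, 55497954 to 55587971) is the first component of the alpha-ketoglutarate dehydrogenase complex, and was at 284, 312 and 394 CPM in the high pigs and at 341, 346 and 354 CPM in the low pigs. The low pigs were close together and lay inside the range of the high pigs, with a log2 fold change of -0.07 (SE 0.181). FH (ENSSSCG00000028178, chromosome 10, 14852719 to 14879014), fumarate hydratase, was at 215, 206 and 217 CPM in the high pigs and at 249, 209 and 215 CPM in the low pigs, a log2 fold change of -0.09 (SE 0.157). MDH2 (ENSSSCG00000025486, chromosome 3, 9953218 to 9965969), mitochondrial malate dehydrogenase, was at 761, 779 and 709 CPM in the high pigs and at 839, 798 and 689 CPM in the low pigs, a log2 fold change of -0.05 (SE 0.167). Adjusted p-values were 0.715 to 0.837 for these 3 genes by edgeR. Over the 8 members, 4 had groups that did not overlap, where 45.9% of all genes tested had none, and the median log2 fold change was -0.06, against 0.03 over all genes.

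**Figure D1:**
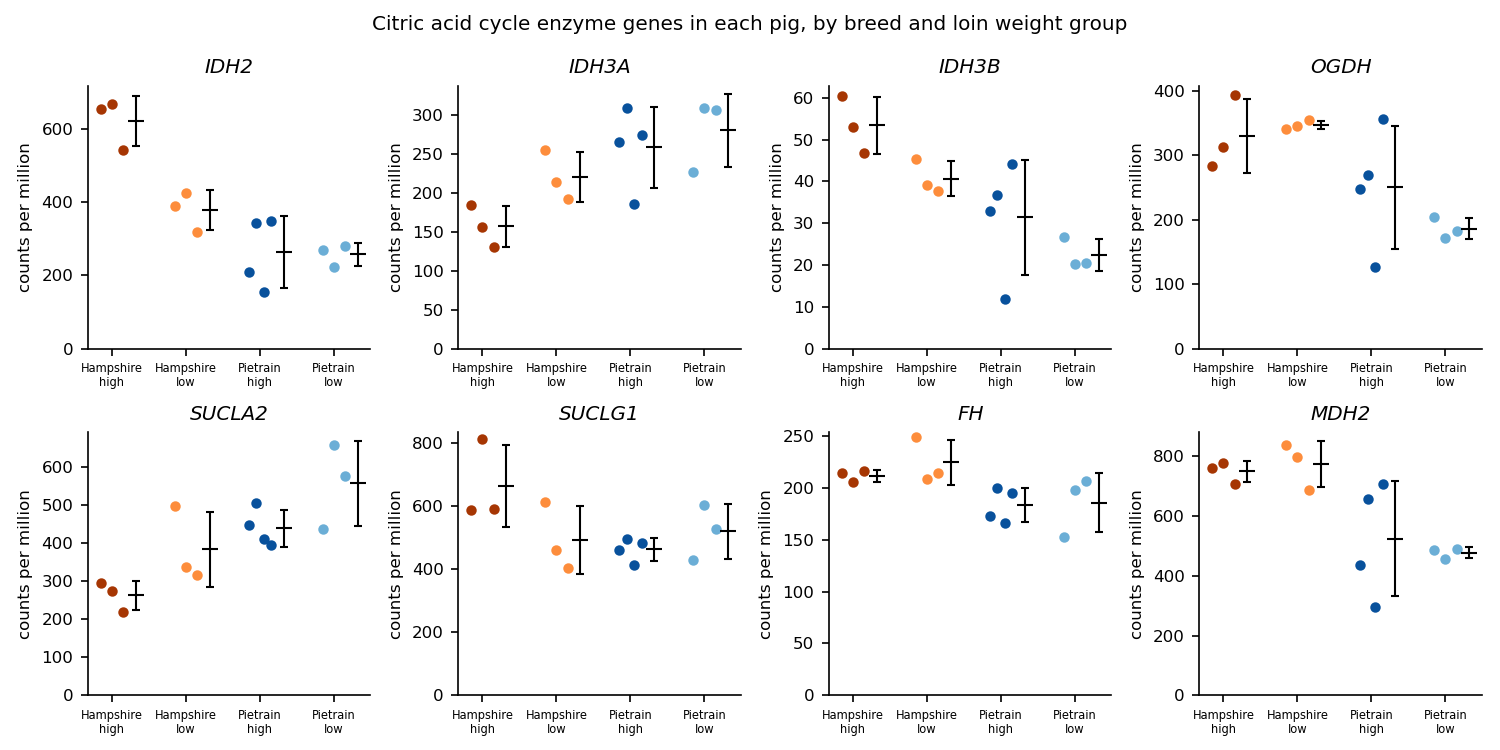
Levels of the 8 cycle enzyme genes in each of 13 pigs, in TMM-scaled CPM on a linear axis from 0, by breed and loin weight group. Points are pigs and the bars beside them the group mean ± SD. IDH2 was at 543 to 667 CPM in Hampshire high pigs and at most 425 CPM in the others, while IDH3A and SUCLA2 had their lowest group means in Hampshire high pigs (157 and 263 CPM).

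Of the 10 remaining subunits of the cycle, 9 could be tested in Hampshire and 2 rose, a share below the 26.6% of all genes called. IDH3G, the other regulatory subunit of the NAD-dependent isocitrate dehydrogenase, rose from 96.9 ± 11.8 to 155 ± 24.1 CPM (mean ± SD, n = 3 each) with a log2 fold change of 0.67 (SE 0.177, adjusted p 0.0257 by edgeR). SDHB, the iron-sulphur subunit of succinate dehydrogenase, rose from 218 ± 22.6 to 321 ± 35.0 CPM with a log2 fold change of 0.55 (SE 0.167, adjusted p 0.0411 by edgeR). The IDH3G call was lost without high pigs 8 or 9 or low pigs 2 or 3, and the SDHB call was lost in each of the 6 fits that left out 1 pig. The other succinate dehydrogenase subunits had log2 fold changes of 0.09 (SDHA), 0.29 (SDHC) and 0.07 (SDHD). The core subunits that OGDH works with had values of -0.33 (DLST, the succinyl transferase) and -0.45 (DLD, the dihydrolipoamide dehydrogenase), and the GDP-using ligase subunit SUCLG2 one of -0.37. None of these 6 passed the test. OGDHL was below the filter, with at most 0.158 CPM in any pig.

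Of 12 genes for the entry of pyruvate into the cycle, 4 fell and 1 rose in the Hampshire high pigs, beside 26.6% of all genes called in either direction. The list's median log2 fold change was -0.04, against 0.03 over all genes, and the other 7 did not pass. PDHA1, the alpha subunit of pyruvate dehydrogenase, fell from 583 ± 99.5 to 316 ± 29.5 CPM, -0.89 on the log2 scale (adjusted p 0.0119 by edgeR). PDP1, the phosphatase that switches the complex on, fell from 20.7 ± 7.10 to 7.26 ± 1.03 CPM, -1.51 on the log2 scale (adjusted p 0.00646). The other calls were PDPR (log2 fold change -1.38), which regulates that phosphatase, DLAT (-0.63), the acetyltransferase of the complex, and PDK2 (0.65), a kinase that switches it off. The calls of PDHA1 and PDP1 held in every fit that left out 1 pig, while those of PDPR, DLAT and PDK2 were lost in 5 of 6. PDPR stayed called without high pig 10, DLAT without high pig 8 and PDK2 without low pig 2.

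Of 13 genes that exchange intermediates with the cycle, 1 was called in Hampshire, beside 26.6% of all genes called. SLC25A1, the mitochondrial citrate carrier, rose from 9.96 ± 1.84 to 22.2 ± 8.13 CPM, a log2 fold change of 1.16 (adjusted p 0.0185 by edgeR). That call was lost without high pig 10, low pig 1 or low pig 3. Of 14 transcriptional regulators of oxidative metabolism tested, 5 fell, 0 rose and 9 did not pass, beside the same share of all genes. Their median log2 fold change was -0.36, against 0.03 over all genes. Those that fell were PPARGC1A (log2 fold change -1.74), a coactivator of mitochondrial biogenesis, the nuclear receptors ESRRG (-2.42) and PPARA (-1.83), and the muscle transcription factors MEF2A (-1.18) and MEF2C (-1.40). The calls of MEF2A and MEF2C held without each of the 6 pigs. ESRRG lost its call without high pig 10 or low pig 3, and PPARA and PPARGC1A without low pig 3.

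The counts of other lists in the same comparison stand beside the 26.6% of all genes that were called. Of 38 nuclear genes for oxidative phosphorylation, 16 rose and 0 fell, with a median log2 fold change of 0.58. Of 6 matched slow fibre genes, 5 rose, with a median of 1.90, and their summed level was 11768 to 17879 CPM in the high pigs and 2865 to 6656 CPM in the low pigs. Of 9 fast fibre genes, 1 fell and 0 rose, and of 11 glycolytic genes 3 rose and 1 fell. Of 10 macrophage genes tested 4 rose, of 12 matrix genes 4 rose, of 8 endothelial genes 2 rose, of 5 adipocyte genes 2 rose and 1 fell, and of 5 blood genes 0 passed. Summed levels were 169 to 249 CPM in high and 57.1 to 140 CPM in low pigs for 11 macrophage genes, and 2209 to 5706 against 886 to 1960 CPM for the matrix genes. No marker of these lists was at 0 in a whole Hampshire group. Genes of the mitochondrial genome took 12.9 to 17.5% of the counts in high pigs and 19.2 to 20.7% in low pigs. The part of fibre type and of other cells in the fold changes of the cycle genes was not tested, and in whole muscle fewer cells of a type and less RNA per cell cannot be told apart.

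In Pietrain pigs, none of the 8 members was called, and 0% of all 12065 genes tested were (398 genes had an unadjusted p under 0.05 in edgeR, and DESeq2 called 1 gene). The spread within the high group was wide for several members, with pig 6 the lowest of all 13 pigs in 4 of them. IDH2 was at 209, 343, 154 and 348 CPM in high pigs 1, 2, 6 and 7 and at 268, 222 and 280 CPM in low pigs 3, 5 and 8, a log2 fold change of 0.07 (SE 0.291). OGDH was at 248, 270, 127 and 356 CPM in the high pigs and at 204, 172 and 183 CPM in the low pigs, a log2 fold change of 0.46 (SE 0.303). High pig 6 was below every low pig and the other high pigs were above them all. IDH3B showed the same layout, at 32.9, 36.7, 11.9 and 44.1 CPM in the high pigs and 26.8, 20.2 and 20.4 CPM in the low pigs, with a log2 fold change of 0.52 (SE 0.373). MDH2 was at 438, 657, 297 and 709 CPM in the high pigs and at 485, 458 and 490 CPM in the low pigs, a log2 fold change of 0.17 (SE 0.286).

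The other members varied less in Pietrain. IDH3A was at 265, 309, 185 and 274 CPM in the high pigs and at 226, 308 and 306 CPM in the low pigs, a log2 fold change of -0.08 (SE 0.215). SUCLA2 was at 448, 504, 410 and 395 CPM in the high pigs and at 438, 657 and 576 CPM in the low pigs, a log2 fold change of -0.31 (SE 0.189). SUCLG1 was at 462, 495, 413 and 483 CPM against 430, 604 and 529 CPM, a log2 fold change of -0.13 (SE 0.179), and FH at 173, 200, 166 and 195 CPM against 153, 198 and 207 CPM, a log2 fold change of 0.02 (SE 0.178). The adjusted p-values of the 8 members were 0.939 to 0.990 by edgeR. None had groups that did not overlap, against 4.59% of all genes tested, and the median log2 fold change was 0.04, against 0.02 over all genes. Without high pig 6 the log2 fold changes of the 4 genes lowest in that pig were 0.27 for IDH2, 0.81 for IDH3B, 0.70 for OGDH and 0.39 for MDH2. None of the 9 other cycle subunits, 12 pyruvate entry genes, 13 exchange genes, 14 regulators, 38 oxidative phosphorylation genes or 6 slow fibre genes was called either. Slow fibre genes summed to 761 CPM in high pig 6, 1493 CPM in high pig 1 and 33.2 CPM in low pig 5, and to 6440 to 11252 CPM in the other 4 Pietrain pigs.

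The loin weight difference of each gene in Hampshire was also set against that in Pietrain, with every pig in the model. None of the 8 members passed, where 5.90% of all 12831 genes tested did at an adjusted p under 0.05. The log2 fold change in Hampshire minus that in Pietrain was 0.68 (SE 0.367, adjusted p 0.297 by edgeR) for IDH2 and 0.60 (SE 0.280, adjusted p 0.228) for SUCLG1. It was -0.50 (SE 0.378) for OGDH, -0.37 (SE 0.296) for IDH3A, -0.20 (SE 0.294) for SUCLA2, -0.18 (SE 0.351) for MDH2, -0.09 (SE 0.454) for IDH3B and -0.06 (SE 0.223) for FH. The call of IDH2 in Hampshire and not in Pietrain is thus not a shown difference between the breeds. Beside the 5.90% of all genes, 5 of 38 nuclear oxidative phosphorylation genes were called with a positive difference and 0 with a negative one. Their median difference was 0.72, against -0.02 over all genes. Of 11 glycolytic and 8 muscle-defining genes, 1 each was called with a negative difference. The fibre lists and the other cell type lists held no call. Of the other cycle subunits and the pyruvate entry, exchange and regulator genes, PDP1 was the 1 called, with a difference of -1.76 (adjusted p 0.0131 by edgeR). It was at 7.26 ± 1.03 CPM in Hampshire high, 20.7 ± 7.10 in Hampshire low, 21.1 ± 3.39 in Pietrain high and 17.7 ± 4.64 CPM in Pietrain low pigs.

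**Figure D2:**
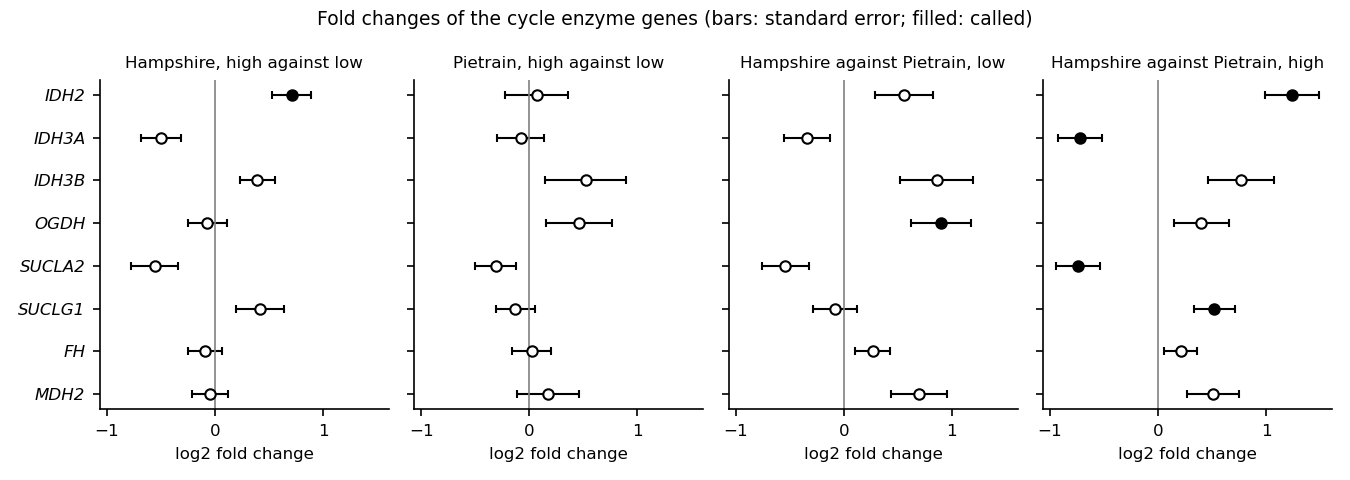
Log2 fold changes of the 8 cycle enzyme genes in the 2 loin weight comparisons and the 2 breed comparisons, with bars of 1 standard error and filled points where the gene was called. Calls were IDH2 in Hampshire, OGDH between the breeds at low loin weight, and IDH2, IDH3A, SUCLA2 and SUCLG1 between the breeds at high loin weight.

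The breeds were compared at each loin weight. They were deposited as 2 tables of raw counts on the same genes, and a difference of breed cannot be told apart from any difference in handling between those sets of pigs. At low loin weight, OGDH was higher in Hampshire than in Pietrain pigs, at 347 ± 6.73 against 186 ± 16.2 CPM (n = 3 each), a log2 fold change of 0.90 (SE 0.277, adjusted p 0.0396 by edgeR). It was 1 of 8 members called, against 17.9% of all genes tested. The call was lost without any 1 of the 6 low pigs, at adjusted p-values up to 0.140, although the log2 fold change stayed between 0.84 and 1.02. Whole-table counts depended on single pigs here, falling from 2300 to 109 without Hampshire low pig 2, 501 without Hampshire low pig 3, 163 without Pietrain low pig 5 and 111 without Pietrain low pig 8.

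The other members at low loin weight did not pass. IDH3B was at 40.7 ± 4.13 CPM in Hampshire and 22.4 ± 3.75 CPM in Pietrain, a log2 fold change of 0.86 (SE 0.335, adjusted p 0.0848 by edgeR). MDH2 was at 775 ± 77.5 against 478 ± 17.1 CPM, a log2 fold change of 0.70 (SE 0.258, adjusted p 0.0710), and IDH2 at 378 ± 54.0 against 257 ± 30.5 CPM, a log2 fold change of 0.56 (SE 0.269, adjusted p 0.151). For each of these 3 genes the lowest Hampshire pig was above the highest Pietrain pig, as it was for OGDH and FH. The share of all genes without overlap was not computed here, so this separation is not read as a result about the members. SUCLA2 had a log2 fold change of -0.54 (SE 0.215, adjusted p 0.0907), IDH3A -0.34 (SE 0.216), FH 0.27 (SE 0.163) and SUCLG1 -0.08 (SE 0.205). MDH2 passed in DESeq2, with at least 10 counts in every pig and in a fit of only these 2 groups. The median of the members was 0.41, against 0.00 over all genes.

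Of the 9 other cycle subunits tested at low loin weight, 1 was called, beside 17.9% of all genes. This was SDHA, the flavoprotein of succinate dehydrogenase, higher in Hampshire at 217 ± 19.2 against 117 ± 10.7 CPM. Its log2 fold change was 0.89 (adjusted p 0.0407 by edgeR). That call, too, was lost without any 1 of the 6 pigs. Pyruvate entry genes had 0 of 12 higher and 3 lower, exchange genes 0 of 13 and 3, and regulators 1 of 14 and 2. PPARGC1A was lower in Hampshire by the widest margin of the genes named here, at 8.15 ± 3.55 against 184 ± 15.5 CPM and a log2 fold change of -4.50 (adjusted p 0.00965). PDK1, a pyruvate dehydrogenase kinase, was also lower (-1.36), as were PDHB (-0.56) and the pyruvate carrier subunit MPC2 (-0.59). The cytosolic enzymes IDH1 (-0.87) and ME1 (-1.10), glutamate dehydrogenase GLUD1 (-0.66) and the mitochondrial transcription factor TFB2M (-0.93) were lower too, and the nuclear receptor PPARD was higher (1.36). Each of these 9 calls around the cycle was lost in at least 1 fit that left out a pig, the PPARGC1A call only without Hampshire low pig 2, at an adjusted p of 0.0572. Macrophage genes had 6 of 10 higher in Hampshire and 0 lower, beside the same 17.9%. Respiratory chain genes had 2 of 38 higher and 1 lower, muscle-defining genes 1 of 8 and 1, glycolytic genes 0 of 11 and 1, and fast fibre genes 0 of 9 and 2. No slow fibre, matrix, endothelial, adipocyte or blood gene passed. The part of these lists in the OGDH and SDHA calls was not tested.

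At high loin weight, 4 of the 8 members were called, against 46.8% of all genes tested. IDH2 was higher in Hampshire, at 621 ± 68.3 (n = 3) against 263 ± 97.5 CPM (n = 4), a log2 fold change of 1.24 (SE 0.249, adjusted p 0.00132 by edgeR). SUCLG1 was higher as well, at 664 ± 130 against 463 ± 36.4 CPM, a log2 fold change of 0.52 (SE 0.190, adjusted p 0.0372). IDH3A was lower in Hampshire, at 157 ± 26.3 against 258 ± 52.5 CPM, a log2 fold change of -0.72 (SE 0.205, adjusted p 0.0111). SUCLA2 was lower, at 263 ± 38.3 against 439 ± 48.6 CPM, a log2 fold change of -0.74 (SE 0.204, adjusted p 0.00899). In all 4 genes the groups did not overlap, and neither did they in IDH3B and FH, which were not called. The share of all genes without overlap was not computed between the breeds, so this separation is not read as a result about the members. The calls of IDH2, IDH3A and SUCLA2 held without each of the 7 pigs. The SUCLG1 call held only without Pietrain high pig 7, and was lost without any of the other 6 pigs, at adjusted p-values up to 0.250. It was also lost with library size alone (log2 fold change 0.27), without the filter on low counts (0.45) and in a fit of only these 2 groups (0.51).

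The members not called at high loin weight were IDH3B at a log2 fold change of 0.77 (SE 0.307, adjusted p 0.0538 by edgeR), MDH2 at 0.51 (SE 0.238, adjusted p 0.0907), OGDH at 0.40 (SE 0.256, adjusted p 0.212) and FH at 0.21 (SE 0.152, adjusted p 0.273). Pietrain high pig 7 lay nearest to the Hampshire pigs in IDH3B, OGDH and MDH2, and without it 7 members were called, all but FH. IDH3B also passed without Pietrain high pig 6 (log2 fold change 0.47), in DESeq2 and with at least 10 counts in every pig. The median of the members was 0.46, against 0.02 over all genes. By group mean, IDH2 and IDH3B went in the order Hampshire high, Hampshire low, Pietrain high and Pietrain low, and IDH3A and SUCLA2 in the reverse order. Neighbouring groups in these orders were shown to differ only for IDH2 between the 2 Hampshire groups, and Hampshire low was not tested against Pietrain high.

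The calls that follow stand beside the 46.8% of all genes called at high loin weight. Of the 9 other cycle subunits tested, IDH3G (log2 fold change 1.15), SDHA (0.75) and SDHB (0.67) were higher in Hampshire and DLD (-0.62) was lower. Of the 12 pyruvate entry genes, PDK2 (0.94) and pyruvate carboxylase PC (0.72) were higher, and PDP1 (-1.54), PDPR (-1.33), PDK1 (-1.10) and DLAT (-0.56) were lower. Of the 13 exchange genes, the carriers SLC25A11 (1.26) and SLC25A1 (1.17) and the mitochondrial malic enzyme ME3 (2.29 times as high) were higher. So was PCK2 (log2 fold change 2.36), the mitochondrial enzyme that makes phosphoenolpyruvate from oxaloacetate. GLUD1 (-0.84), ME1 (-1.16) and IDH1 (-0.71) were lower. Of the 14 regulators tested, PPARGC1A (-5.38), PPARA (-2.46), MEF2C (-1.74), MEF2A (-1.10) and GABPB1 (-0.71) were lower and PPARD (0.88) was higher. PPARGC1A was at 2.46 ± 0.782 CPM in Hampshire high pigs and at 101 CPM on average in Pietrain high pigs, whose range was 5.55 to 183 CPM. Calls lost without 1 pig were SDHB, PDPR and PCK2 without Hampshire high pig 9, DLAT and DLD without Hampshire high pig 9 or 10 or Pietrain high pig 2, and GABPB1 without Hampshire high pig 9 or Pietrain high pig 6. The SDHA call was lost without any Hampshire high pig or Pietrain high pig 1, and the PC call without Hampshire high pig 9 or 10 or Pietrain high pig 2 or 6. Beside the same 46.8% of all genes called, respiratory chain genes had 24 of 38 higher in Hampshire and 0 lower. Macrophage genes had 10 of 10 higher, matrix genes 8 of 12 and endothelial genes 4 of 8. Blood genes had 2 of 5 higher, adipocyte genes 1 of 5 and fast fibre genes 1 of 9. Of 11 glycolytic genes 3 were higher and 2 lower, and of 8 muscle-defining genes 4 were higher and 2 lower. None of the 6 slow fibre genes passed. The part of these lists in the breed differences of the cycle genes was not tested.

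In 3 pairs of subunits of the same enzyme, the ratio of counts was not the same across the groups. The ratio of counts of 2 genes in the same library does not depend on the scaling between libraries, and only its difference between pigs is read here, since gene lengths differ. The comparison was chosen after the values were seen and carries no test. Ratios over all gene pairs were not computed, so the share that separates the groups in this way is not known. In each pair the first gene is the shorter on the genome (8.81 kb for IDH3G), and the trend over genomic length was not taken out of the ratios. The log2 ratio of IDH3B to IDH3A counts was -1.55 ± 0.06 (mean ± SD, n = 3) in Hampshire high pigs, -2.43 ± 0.07 (n = 3) in Hampshire low pigs, -3.17 ± 0.56 (n = 4) in Pietrain high pigs and -3.64 ± 0.49 (n = 3) in Pietrain low pigs. The ratio of IDH3G to IDH3A took the same order, at -0.02 ± 0.04, -1.18 ± 0.05, -1.96 ± 0.43 and -2.34 ± 0.35. The ratio of SUCLG1 to SUCLA2 was 1.33 ± 0.30, 0.37 ± 0.07, 0.08 ± 0.14 and -0.09 ± 0.06 in the same order of groups. In all 3 ratios every Hampshire high pig was above every Hampshire low pig, and every Hampshire low pig was above every Pietrain pig, whereas the 2 Pietrain groups overlapped in the ratios to IDH3A.

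**Figure D3:**
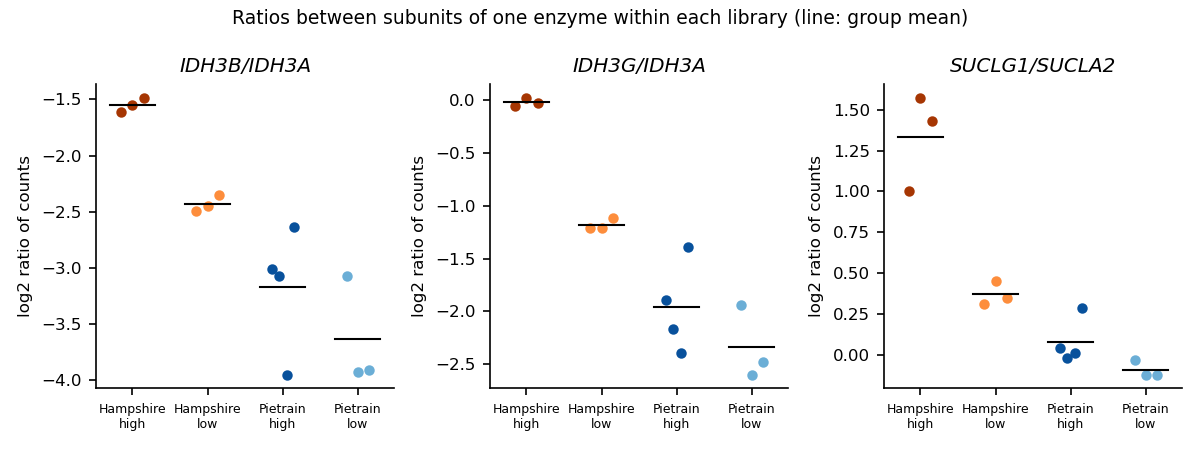
Log2 ratio of raw counts between subunits of 1 enzyme within each pig's library, for IDH3B and IDH3G over IDH3A and for SUCLG1 over SUCLA2, by group. Points are pigs and lines group means, and the Hampshire high pigs sit highest in each panel, at -1.61 to -1.49, -0.05 to 0.02 and 1.00 to 1.57.

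Gene length on the genome moved with these differences. The deviation of each gene from its mean over all pigs had a Spearman rho with genomic length of -0.412 to -0.341 in the Hampshire high pigs, -0.0883 to 0.0251 in the Hampshire low pigs, and 0.212 to 0.340 in 6 of the 7 Pietrain pigs, with -0.0411 in Pietrain high pig 7. Among the members, IDH3B spans 4.98 kb, IDH2 10.1 kb, MDH2 12.8 kb and IDH3A 19.4 kb, while FH spans 26.3 kb, SUCLG1 36.0 kb, SUCLA2 54.4 kb and OGDH 90.0 kb. With the trend over length entered as an offset, IDH2 stayed called in Hampshire at a log2 fold change of 0.57 (adjusted p 0.0420 by edgeR), down from 0.71, while IDH3B moved from 0.39 to 0.09 and SUCLA2 from -0.56 to -0.26. IDH3A was -0.46, SUCLG1 0.63 and OGDH 0.30 in that fit, without passing. The IDH3G call was lost at a log2 fold change of 0.48 (adjusted p 0.0704), and so were those of DLAT (-0.28) and SLC25A1 (0.83). Between the breeds at high loin weight, SUCLA2 lost its call at -0.33 (adjusted p 0.175) and OGDH passed at 0.86 (adjusted p 0.0201), while IDH2 (1.02), IDH3A (-0.69) and SUCLG1 (0.81) stayed called. The breed calls of DLD, DLAT, PC, ME1 and GABPB1 at high loin weight were lost in that fit. PDPR, PPARA and PCK2 had no known position, so their calls could not be checked this way. At low loin weight the OGDH call stayed, at 1.06 (adjusted p 0.0247), and those of GLUD1 and MPC2 were lost.

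**Figure D4:**
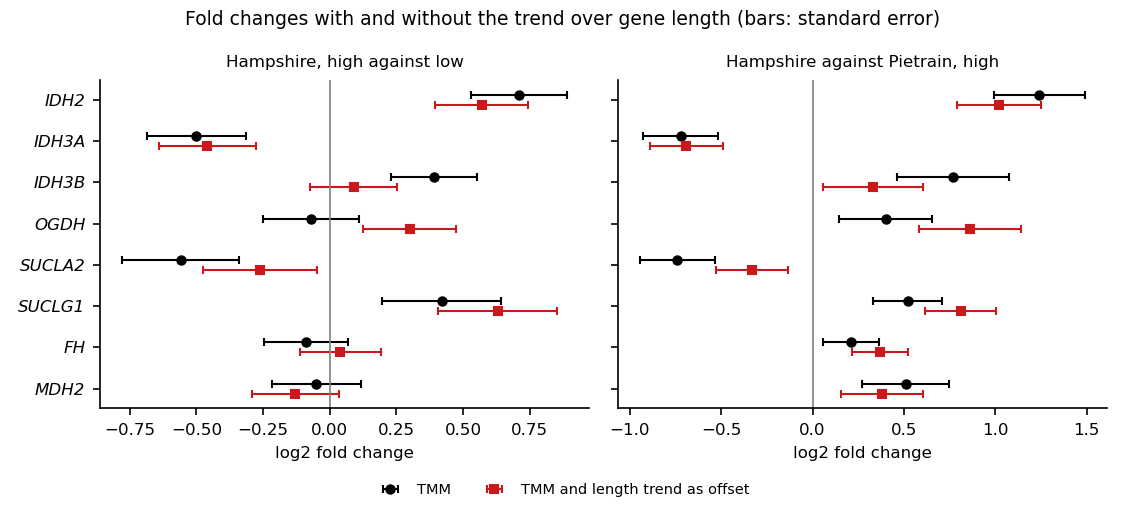
Log2 fold changes of the 8 cycle enzyme genes with TMM scaling (circles) and with the trend over genomic length added as an offset (squares), with bars of 1 standard error, for Hampshire high against low loin weight and for Hampshire against Pietrain at high loin weight. In Hampshire, IDH3B and SUCLA2 came nearer to 0 (0.09 and -0.26), IDH2 moved from 0.71 to 0.57, and OGDH crossed 0.

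Within groups, the members varied together to different degrees. After the group means were subtracted, the 28 pairs of members had a median Pearson r of 0.62 over the 13 pigs, from -0.18 (OGDH with SUCLA2) to 0.96 (IDH2 with MDH2). When the 2 pigs farthest from the median of the first gene were left out of each pair, which were not the same pigs in every pair, the median r was 0.34. Without Pietrain high pigs 6 and 7, IDH2 with MDH2 had 0.93, OGDH with MDH2 moved from 0.84 to 0.15, and IDH2 with OGDH from 0.73 to 0.04. Leaving out the pigs farthest from the median narrows the range of values, which by itself can lower r. The points share their libraries and scaling, so these values are descriptions.

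Among the 5 genes outside the list whose levels went most with the mean of the members, over 13 pigs with group means subtracted and among 12823 genes, were UQCRC1 (r 0.958, Spearman rho 0.912), NDUFS3 (r 0.957, rho 0.890), FUZ (r 0.945, rho 0.940) and CCDC124 (r 0.941, rho 0.912). UQCRC1 encodes a core protein of respiratory complex III, and NDUFS3 encodes a core subunit of complex I. Without Pietrain high pigs 6 and 7, r was 0.88, 0.87, 0.83 and 0.80 for these genes, over a narrower range that by itself can lower r. Without subtraction of the group means, UQCRC1 was the 1 gene of the 5 that was still among the first 5.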

How the data were processed

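RNA from longissimus lumborum of 13 pigs (3, 3, 4 and 3 per group) was kept in RNAlater and made into TruSeq RNA v2 libraries, each sequenced as single-end reads in 4 technical runs. The kit does not keep strand, so reads of genes that overlap on opposite strands cannot be told apart. The authors deposited raw counts per Ensembl gene on Sscrofa10.2, and their processing notes name FastQC, STAR, RSEM and DESeq2. The annotation release, and whether estimated counts were rounded, are not given in the sources used here. The authors also deposited tables of their own comparisons (fold changes and p-values), which were not used apart from gene positions and symbols. Symbols came from these tables or a RefSeq gene table used for names only, for 13168 of 25322 genes.

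Differential expression was computed with edgeR 4.0.16 in R 4.3.3 (quasi-likelihood F-test after filterByExpr and TMM). Each breed was fitted alone, or all 13 pigs together for the breed comparisons and the difference between breeds. Standard errors were computed as the log2 fold change over the root of F. Log2 CPM had a pseudocount of 0.5. Alternatives were DESeq2 1.42.0, other scalings and filters, other samples in the fit, a length offset (loess, span 0.5) over 9975 genes with positions, and leaving out each pig. The test steps were also run on simulated counts with larger changes than the members showed, and no result here rests on that run. The study's methods give fewer Pietrain high pigs than its sample labels, and all 4 labelled pigs were used.

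The members and lists were chosen with earlier results of these data known. Of 201 further listed symbols, 164 matched. Named are all members, the other cycle subunits, the genes called in the pyruvate entry, exchange and regulator lists (at most 8 per list and comparison), and the 5 genes most like the members, except 2 genes that are not reported here. Levels were not compared between genes, as coding lengths were not used here.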

Additional observations from a re-analysis of the deposited data

Results flagged for a closer look

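The level of TFB2M, a mitochondrial transcription factor, was flagged in 1 of the 42 members and named genes tested for a pig far from its group. Pietrain high pig 1 was at 9.19 CPM in a group that ranged from 9.19 to 10.5 CPM, so the gap was large only beside a narrow range. Chance alone flags about 1 group in 20 by this measure.

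The loin weight difference of PDP1 differed between the breeds, with a log2 fold change in Hampshire minus that in Pietrain of -1.76 (adjusted p 0.0131 by edgeR). It lay between -2.05 and -1.50 in the 13 fits that left out 1 pig, and stayed called in each. None of the 8 members was flagged.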

How the results depend on the processing

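In Hampshire, the members called numbered 3 with library size alone and 3 with at least 10 counts in every pig (IDH3A and SUCLA2 beside IDH2), 0 in 1 fit over all 13 pigs, and 0 to 1 without 1 pig. In the fits without 1 pig, all genes called there ranged from 1224 (without low pig 3) to 3049, with 1760 without high pig 10 and 2091 without high pig 9, against 3256 with all 6 pigs. With the length offset OGDH (0.30) and FH (0.04) changed sign. In Pietrain, DESeq2 called 1 gene, IDH3A was 0.01 with library size alone and FH -0.02 in 1 fit over all pigs. Without 1 pig, IDH2 was -0.11 to 0.27, IDH3A -0.18 to 0.07, FH -0.07 to 0.11 and MDH2 -0.02 to 0.39. For the difference between breeds, all genes called were 1224 in DESeq2, 427 with the length offset and 379 to 1052 without 1 pig. The members' median was -0.38 with library size alone and -0.37 to -0.02 without 1 pig, IDH3B was -0.44 to 0.12, and SUCLA2 (0.03) and FH (0.02) changed sign with the length offset. Between the breeds at low loin weight, members called were 3 in DESeq2 (MDH2 and SUCLA2 beside OGDH), 2 with at least 10 counts, 3 in a fit of the 2 groups (MDH2 and IDH3B) and 0 to 1 without 1 pig. All genes called were 109 to 2611 without 1 pig, and SUCLG1 was 0.06 with the length offset and -0.25 to 0.09 without 1 pig. At high loin weight, members called were 3 to 7 without 1 pig, their median was 0.23 with library size alone and 0.22 to 0.58 without 1 pig, and FH was -0.02 with library size alone. Of the 5 genes most like the members, 1 was shared without subtraction of group means. Of the other named genes in Hampshire, PDK2, SDHB and SLC25A1 lost their calls with library size alone, SDHB without a filter, and IDH3G, PDK2, PPARGC1A and SDHB in 1 fit over all pigs. Between the breeds, PC, SDHA and SDHB lost theirs with library size alone, PC and SDHA without a filter or with only the 2 groups (high loin weight), and MPC2 and PDHB without a filter and PDHB with only the 2 groups (low loin weight). The cause of these changes was not tested.

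Scaling by library size alone moved the median log2 fold change of all genes from 0.03 to -0.12 in Hampshire, from -0.02 to -0.29 for the difference between breeds and from 0.02 to -0.22 at high loin weight, and the Hampshire split from 1468 higher and 1788 lower to 781 and 1927. No paired analysis was run, since the pigs were unrelated and the labels name no pairs. Levels per coding length were not run. Groups of 3 or 4 pigs limit each test, and no member was limited by depth alone, the fewest reads being 184 for IDH3B in Pietrain high pig 6.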
